A study of Mus musculus with 17 samples.

Results

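Caveolae are small flask-shaped pits of the plasma membrane. The genes described here are 7 that build, shape or hold them. They were chosen by name from the caveolins, the cavins and their partners at curved membrane, with earlier results of these data known. They are Cav1, Cav2, Cavin1, Cavin2, Cavin3, Ehd2 and Pacsin2. Their identifiers are ENSMUSG00000007655 (Cav1, chromosome 6), ENSMUSG00000000058 (Cav2, chromosome 6), ENSMUSG00000004044 (Cavin1, chromosome 11), ENSMUSG00000045954 (Cavin2, chromosome 1), ENSMUSG00000037060 (Cavin3, chromosome 7), ENSMUSG00000074364 (Ehd2, chromosome 7) and ENSMUSG00000016664 (Pacsin2, chromosome 15). All 7 were found among the 56748 genes of the count table, and all 7 were among the 15196 that passed the filter on low counts. They were measured by RNA sequencing in E11, a cell line of mouse podocytes, the filtering epithelium of the kidney. The cells grew on silicone (polydimethylsiloxane, PDMS) with 1 of 3 surfaces. HF was a highly fractal relief taken from tracings of healthy glomeruli in histology (6 libraries), RT a round relief that is not fractal (6 libraries) and NT a surface with no topography (5 libraries). All groups share the cell line and the silicone. No other treatment is given in the labels, and neither is what separates one replicate from another, so the p-values rest on a spread between libraries that may be technical.

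Caveolin 1, made by Cav1, inserts into the inner leaflet of the membrane as oligomers, and caveolin 2, made by Cav2, joins it in hetero-oligomers. The cavins form a coat on the cytosolic side, for which cavin 1 is required, while cavin 2 and cavin 3 join it as partners. The ATPase EHD2 sits at the neck of the pit and holds it at the surface, and the F-BAR protein PACSIN2 binds and bends membrane during formation of the neck. Caveolae flatten when a membrane is stretched and so give up stored area, for which they are known as a buffer of membrane tension. They are plentiful in endothelium, fat and muscle.

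Cav1 and Cav2 are neighbours on mouse chromosome 6, with no other protein-coding gene between them in the RefSeq order. Their promoters, from 250 bases before to 50 bases after a RefSeq start (build GRCm38.p6), are shown because these genes were the members lower on HF than on NT. That of Cavin1, the member with the highest level, is shown beside them. The first start listed was taken for Cav1 and for Cavin1. Each sequence reads 5′ to 3′ along the gene, and capitals mark matches to GGGCGG on either strand, the core of the box bound by SP and KLF factors.
Cav1, chr6:17306085-17306384, plus strand: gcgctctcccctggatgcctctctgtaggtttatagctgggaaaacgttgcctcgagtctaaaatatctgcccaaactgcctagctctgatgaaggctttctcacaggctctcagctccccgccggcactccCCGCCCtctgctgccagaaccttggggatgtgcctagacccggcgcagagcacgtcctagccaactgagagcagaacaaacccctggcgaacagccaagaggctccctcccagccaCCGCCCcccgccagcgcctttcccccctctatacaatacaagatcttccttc
Cav2, chr6:17280935-17281234, plus strand: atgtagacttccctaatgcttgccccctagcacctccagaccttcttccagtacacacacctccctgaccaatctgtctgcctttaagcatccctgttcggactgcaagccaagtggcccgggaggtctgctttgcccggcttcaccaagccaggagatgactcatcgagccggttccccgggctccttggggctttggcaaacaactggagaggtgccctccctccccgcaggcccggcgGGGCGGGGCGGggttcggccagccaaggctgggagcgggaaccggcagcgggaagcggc
Cavin1, chr11:100970568-100970867, minus strand: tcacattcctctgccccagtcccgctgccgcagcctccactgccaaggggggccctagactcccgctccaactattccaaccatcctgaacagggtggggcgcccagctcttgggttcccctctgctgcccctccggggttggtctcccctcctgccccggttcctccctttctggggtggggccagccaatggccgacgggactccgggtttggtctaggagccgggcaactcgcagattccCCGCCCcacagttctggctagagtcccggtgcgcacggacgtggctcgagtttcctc
The box occurred in 2 places in the Cav1 window and in 2 in the Cav2 window, where the matches share 1 base, and in 1 place in the Cavin1 window. Among windows not shown it had 2 matches in that of Ehd2, 2 at the first of 3 starts of Pacsin2 with 0 at the others, and 0 in that of Cavin2. The matches of Cav1 depend on the start taken, since the window of its other start held 0, while that of Cavin1 held 1. Of 32851 promoters of the same length, 35.7% held it. A match to the CArG box, the element of SRF, was found in 1.63% of promoters and in none of these windows. GGAATG, the TEAD motif, was in 14.7% of promoters and among these windows only in that of Cavin1. CCAAT was in 37.4% of promoters, with 1 match in the Cav2 and 1 in the Cavin1 window. TATAAA was in 13.6%, with 1 match in the Cav1 window. No other match overlapped another. Of the 7 members, 6 had a promoter in the RefSeq table, and Cavin3 had none.

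Library totals ran from 16.2 to 17.8 M counts on HF, from 15.7 to 24.1 M on RT and from 14.9 to 18.6 M on NT. By the median correlation of log2 CPM to its own group, 0.99 for each, no library stood apart. That measure does not show how far a single library moves the calls. Among podocyte markers, Synpo, Podxl, Cd2ap and Wt1 lay at or above 96.9 CPM in every group mean. Nphs1 (nephrin) stood at 5.03, 4.66 and 3.96 CPM on HF, RT and NT. The 6 endothelial markers summed to between 0.185 and 1.29 CPM per library and the 4 adipocyte markers to at most 0.116 CPM. No member of either list passed the filter. Markers of other lineages were not all absent. The renal tubule marker Lrp2 averaged 411, 400.4 and 382 CPM on HF, RT and NT. Csf1r, of macrophages, averaged 45.8, 50.8 and 39.4 CPM, and Col1a1, of fibroblasts, 43.4, 45.9 and 30.1 CPM, in the same order. The other genes of these lists averaged at most 5.24 CPM in any group. What these markers mean for the identity of the cells was not tested.

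Read per length of the longest annotated transcript, Cavin1 had the highest level of the 7 and Cavin3 the lowest. Cavin1 averaged 167 ± 5.31 CPM per kb over all libraries (SD, n = 17), with CPM the count of a gene per M counts of the scaled library total. Cav1 followed at 86.3 ± 5.31 and Ehd2 at 66.4 ± 2.65 CPM per kb (SD, n = 17). The order of these 2 rests on the lengths taken, 2746 bases for Cav1 and 5119 for Ehd2. In CPM without length, Ehd2 (323 to 373 CPM) lay above Cav1 (215 to 260.2 CPM). Pacsin2 averaged 45.1 ± 2.42 and Cav2 41.3 ± 2.53 CPM per kb (SD, n = 17). Cavin2 was at 15.1 ± 1.31 and Cavin3 at 11.04 ± 1.17 CPM per kb (SD, n = 17). The libraries of Pacsin2 and Cav2 overlapped in CPM per kb, as did those of Cavin2 and Cavin3, while the other neighbours in this order did not overlap. The muscle forms were at or near the floor of detection. Cav3, the muscle caveolin, had 0 counts in all libraries, and Cavin4, the muscle cavin, had 90 counts in all.

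**Figure D1:**
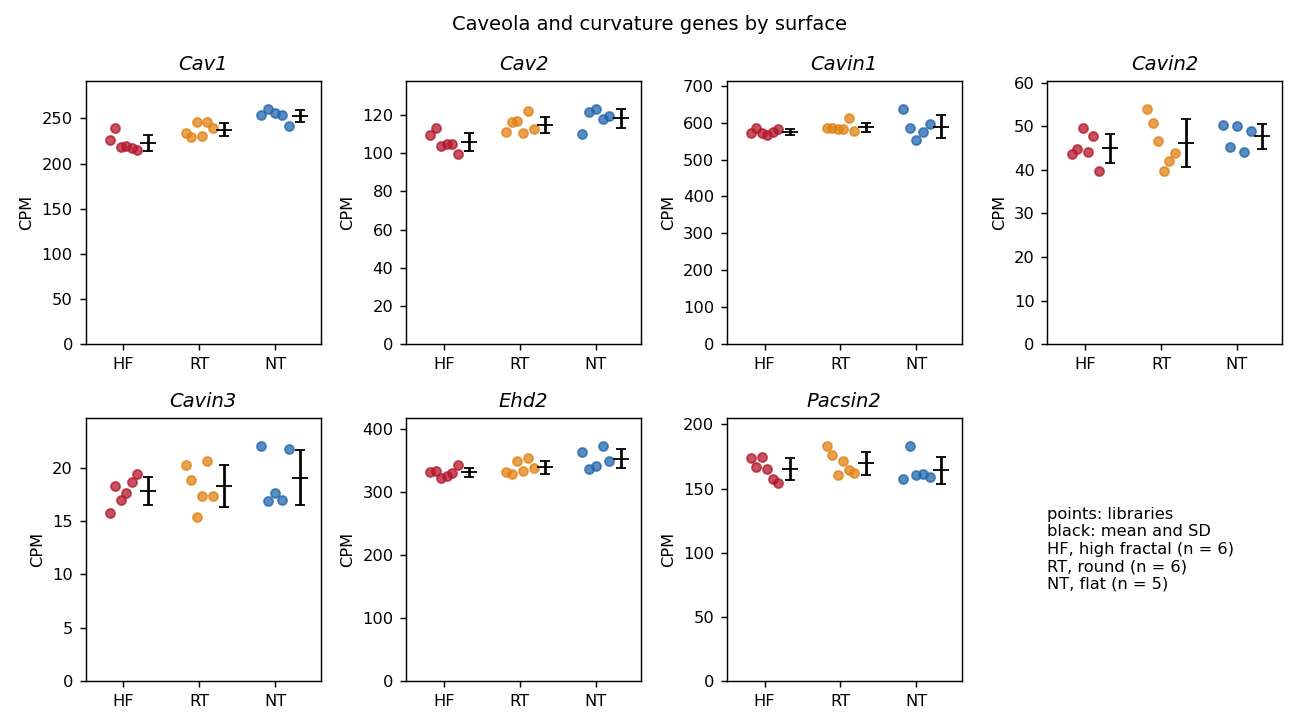
Level of each of the 7 genes in CPM (y axis, from 0) in every library of HF, RT and NT (x axis), with the mean and SD in black. Cav1 shows HF libraries between 215 and 239.9 CPM, below NT libraries between 242 and 260.2 CPM. The groups of Cav2, Cavin1, Cavin2, Cavin3, Ehd2 and Pacsin2 overlap.

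HF set against NT addresses the fractal relief relative to a surface without topography. Both caveolins expressed in these cells fell, and no cavin or neck protein passed the test. Cav1 stood between 215 and 239.9 CPM on HF, with a median of 219 CPM, against 253, 260.2, 256, 254 and 242 CPM on NT. The 6 HF libraries all lay below the 5 NT libraries, though HF 2 (239.9 CPM) and NT 5 (242 CPM) nearly met. Its log2 fold change was -0.18 ± 0.03 (SE), a level lower by 12.0% (edgeR adjusted p = 0.00120). Cav1 ranked 49 by p among the 15196 genes tested.

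Cav2 ran from 99.8 to 113 CPM on HF, with a median of 105 CPM, against 110.3, 122, 123, 118 and 119 CPM on NT. The groups overlapped through NT 1, the lowest NT library, and HF 2, the highest HF library. Its log2 fold change was -0.16 ± 0.04 (SE), a level lower by 10.5% (edgeR adjusted p = 0.0149). The call ended without NT 3 (log2 fold change -0.14, adjusted p = 0.0602). Leaving out the other libraries singly did not end it, and no single library ended that of Cav1.

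Thus 2 of 7 members were past the threshold, both lower, where 2.33% of all genes tested were called and 0.829% were called lower. Over the 7 members the median log2 fold change was -0.09, beside -0.00 over all genes, and 6 of 7 were negative, beside 51.0% of all genes. Since the members were chosen with earlier results of these data known, these shares only describe them and are no test against all genes. Cav1 was the 1 member whose HF libraries all lay below NT, as 0.934% of all genes did. The median absolute log2 fold change among all called genes was 0.24, so both falls were smaller than that. In bulk RNA, fewer cells expressing a gene and less RNA per cell cannot be told apart. The 6 smooth muscle and pericyte markers summed to 805 to 881 CPM on HF and 677 to 772 CPM on NT. Of these, Acta2 averaged 364 CPM on HF and 261 CPM on NT, whereas Pdgfrb averaged 478 CPM on both. Cnn1, Des, Rgs5 and Myh11 were low, with 104 counts of Myh11 in all libraries. Among podocyte markers Wt1 averaged 103 CPM on HF and 115 CPM on NT (log2 fold change -0.16, edgeR adjusted p = 0.0113). The part of these markers in the falls of the caveolins was not tested.

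No coat protein passed. Cavin1 ran from 566 to 586 CPM on HF (median 573 CPM), against 636, 586, 553, 575 and 597 CPM on NT. NT held both the highest and the lowest library of the comparison. The log2 fold change was -0.03 ± 0.03 (SE, edgeR adjusted p = 0.707), with a 95% interval from -0.10 to 0.03. Cavin2 stood at 39.8 to 49.5 CPM on HF (median 44.4 CPM), against 50.2, 45.2, 49.96, 44.2 and 49.0 CPM on NT. The log2 fold change was -0.09 ± 0.07 (SE, edgeR adjusted p = 0.614). Its interval, from -0.22 to 0.04, includes a change as large as that of Cav1. Cavin3 was at 15.8 to 19.4 CPM on HF (median 18 CPM), against 22.1, 16.9, 17.7, 17 and 21.8 CPM on NT. Its log2 fold change was -0.10 ± 0.08 (SE, edgeR adjusted p = 0.652, interval from -0.26 to 0.06), the least precise of the 7. In GENCODE M21, 22.5% of the exonic bases of Cavin3 are shared with Gm45667 on the opposite strand, and in these non-directional libraries reads of the 2 genes there cannot be told apart.

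Of the neck proteins, Ehd2 ran from 323 to 342 CPM on HF (median 331 CPM), against 363, 337, 341, 373 and 349 CPM on NT. The 6 HF libraries were below the NT median, and HF 6 reached into the NT range. On the log2 scale the difference was -0.09 ± 0.03 (SE), with an unadjusted p of 0.00853 by edgeR (14.2% of all genes were under 0.05), which did not pass after adjustment (adjusted p = 0.150). Pacsin2 stood at 154 to 175 CPM on HF (median 166 CPM), against 157, 183, 161, 162 and 159 CPM on NT. Its log2 fold change was 0.01 ± 0.04 (SE, edgeR adjusted p = 0.954), and the interval from -0.07 to 0.09 leaves out a fall as large as that of Cav1 or Cav2.

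**Figure D2:**
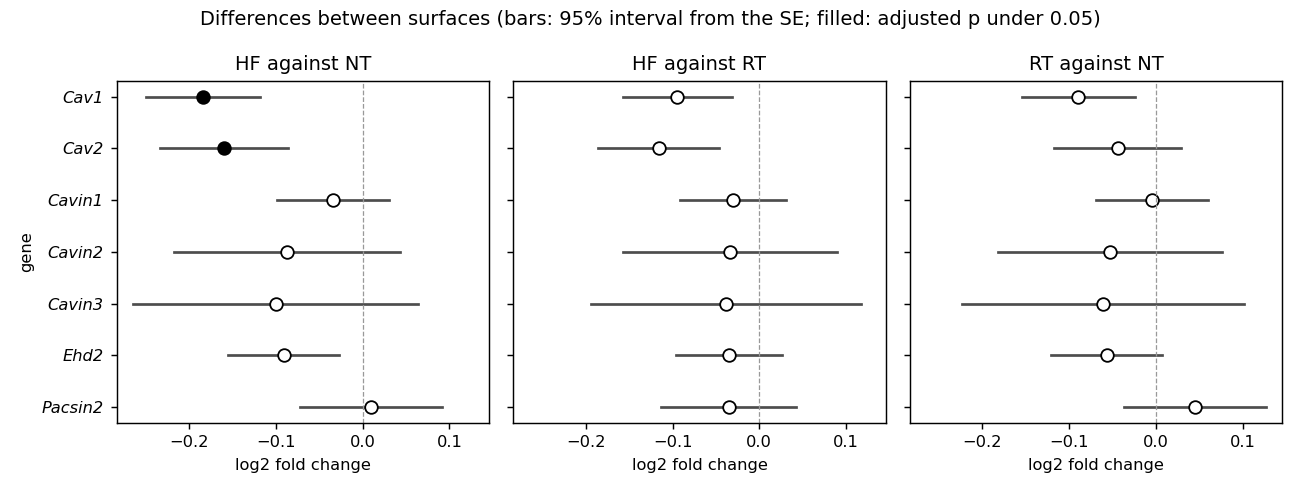
Log2 fold change of each gene (x axis) in 3 panels, from left to right HF over NT, HF over RT and RT over NT, with bars for the 95% interval. Filled points passed an adjusted p of 0.05. Only Cav1 (-0.18) and Cav2 (-0.16) in HF against NT are filled, and Cavin2 and Cavin3 have the widest bars.

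HF set against RT addresses the fractal shape apart from relief as such. None of the 7 members passed by edgeR (0 of 7, where 0.211% of all genes were called), and DESeq2 and limma voom also called 0, while 2 had an unadjusted p under 0.05 (8.00% of all genes). These were the caveolins. Cav1 on HF, at 215 to 239.9 CPM (median 219 CPM), stood against 229 to 246 CPM on RT (median 237 CPM). HF 2 alone of the HF libraries lay above the RT median. The log2 fold change was -0.09 ± 0.03 (SE, edgeR adjusted p = 0.312), with a 95% interval from -0.16 to -0.03. Cav2 was at 99.8 to 113 CPM on HF (median 105 CPM), against 111 to 122 CPM on RT (median 114 CPM). The 6 HF libraries were below the RT median, and HF 2 alone reached the RT range. Its log2 fold change was -0.12 ± 0.04 (SE, edgeR adjusted p = 0.221), with a 95% interval from -0.19 to -0.05. For the other 5 members it lay between -0.04 and -0.03, with adjusted p from 0.861 to 0.964, and the widest interval, that of Cavin3, ran from -0.19 to 0.12. The 7 members were all negative, with a median of -0.04, beside 50.4% negative and a median of -0.00 over all genes.

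RT set against NT addresses the round relief by itself. Again 0 of 7 members passed by edgeR, where 3.97% of all genes were called, and 0 by DESeq2 and by limma voom, with 1 at an unadjusted p under 0.05 (17.1% of all genes). That was Cav1, at 229 to 246 CPM on RT (median 237 CPM), against the NT libraries at 242 to 260.2 CPM. The 6 RT libraries were below the NT median of 254 CPM, and 2 of them, RT 3 and RT 5, reached above NT 5. The log2 fold change was -0.09 ± 0.03 (SE, edgeR adjusted p = 0.142), and it passed when NT 5, the lowest NT library, was left out (-0.11, adjusted p = 0.0409). Cav2 had a log2 fold change of -0.04 ± 0.04 (SE, edgeR adjusted p = 0.622), at 111 to 122 CPM on RT (median 114 CPM) against 110.3 to 123 CPM on NT (median 119 CPM). The remaining members lay between -0.06 (Cavin3 and Ehd2) and 0.04 (Pacsin2), with adjusted p of 0.397 or more. A p that misses the threshold does not show equal levels, and the interval of Cavin3 here ran from -0.22 to 0.10. Pacsin2, from 160 to 183 CPM on RT (median 168 CPM) and from 157 to 183 CPM on NT (median 161 CPM), was the 1 member with a positive value. The median of the 7 was -0.05, beside -0.00 over all genes. These comparisons share libraries with that of HF and NT, and for Cav1 the log2 fold changes side by side were -0.18 (HF over NT), -0.09 (HF over RT) and -0.09 (RT over NT). For Cav2 they were -0.16 (HF over NT), -0.12 (HF over RT) and -0.04 (RT over NT).

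Whether one member moved otherwise than another was tested within libraries, on the difference of their log2 CPM, for all 21 pairs in each comparison (exact two-sided permutation test, adjusted over 63 tests). No pair passed. An unadjusted p under 0.05 was found for 3 pairs with HF and NT, for 4 with HF and RT and for 0 with RT and NT. The smallest p that the 462 splits of HF and NT libraries allow is 0.00216, which for a lone pair is 0.136 after adjustment. No pair could pass unless at least 3 of the 63 tests had such small p-values together, so the absence of calls says little. On HF the log2 difference of Cav1 over Cavin1 averaged -1.37, against -1.22 on NT, a shift of -0.15 (exact permutation p = 0.0130, adjusted p = 0.273). Cav1 over Pacsin2 averaged 0.43 on HF and 0.62 on NT, a shift of -0.19 (exact permutation p = 0.00649, adjusted p = 0.273). For Cav1 over Cav2 the averages were 1.07 on HF and 1.09 on NT, a shift of -0.02 (exact permutation p = 0.476, adjusted p = 0.834). So whether the caveolins moved otherwise than the cavins, Ehd2 or Pacsin2 cannot be told from these tests.

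**Figure D3:**
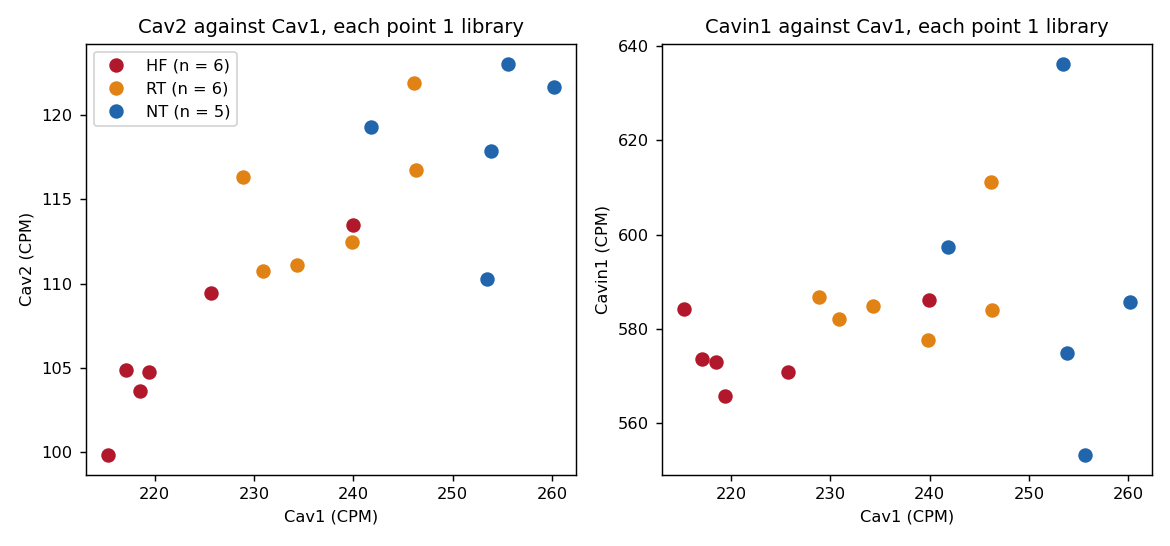
Cav2 (left) and Cavin1 (right) in CPM on the y axes against Cav1 in CPM on the x axes, 1 point per library, coloured by surface. HF libraries sit at low Cav1 and low Cav2, with HF 2 the highest of them at 239.9 CPM of Cav1, while Cavin1 of HF (566 to 586 CPM) lies within the range of NT (553 to 636 CPM).

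Cav1 and Cav2 also varied together among libraries of the same surface. With each group's mean removed, Pearson's r between their log2 CPM was 0.64 over the 17 libraries. Cavin1 and Cavin3 had an r of 0.66 and Cavin1 and Ehd2 of 0.43, whereas Ehd2 and Pacsin2 had -0.63. Cav1 with Cavin1 had 0.08 and Cav2 with Cavin1 -0.24. These are descriptions without a test, since the values of a library share its depth and scaling. The replicate number took 18.1% of the variation of Cav1 within groups and 46.5% of that of Cav2, beside a median of 40.1% over all genes.

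**Figure D4:**
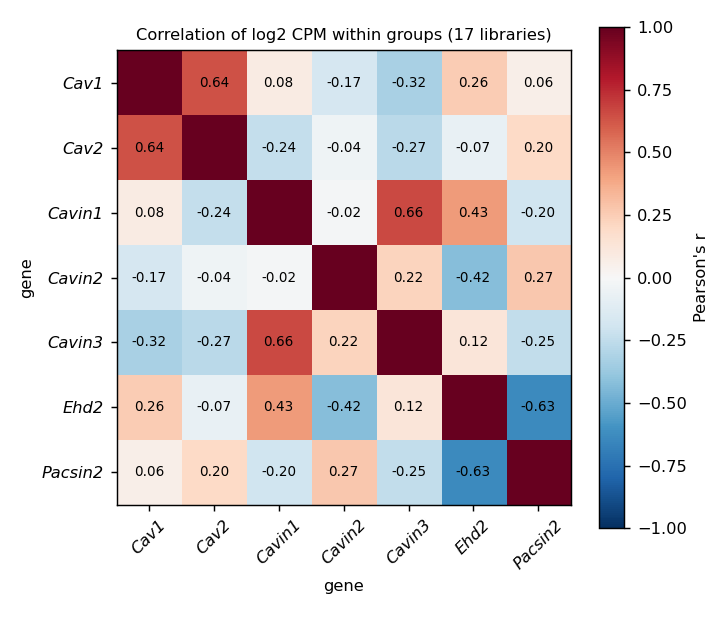
Pearson's r of log2 CPM between each pair of the 7 genes (both axes) over 17 libraries after removing group means, coloured from -1 (blue) to 1 (red). Cav1 with Cav2 (0.64) and Cavin1 with Cavin3 (0.66) are the highest, and Ehd2 with Pacsin2 (-0.63) is the lowest.

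Likeness was read over 8333 genes whose mean log2 CPM reached 4 and that had an ordinary gene name. Genes with no symbol, with Gm, Rik or clone names, and mitochondrial genes were left out, so the ranks hold within this set. The pattern most like Cav1 over all 17 libraries was that of Sec62 (a subunit of the protein import machinery of the endoplasmic reticulum), with an r of 0.89. Cav2 came next at 0.85 and Oxr1 (an oxidation resistance protein) after it at 0.85. Sec62 averaged 564 CPM on HF, 596 on RT and 644 on NT. Within groups, Cav2 ranked 29 by likeness to Cav1, and the highest were Ubqln2 (an ubiquitin receptor) at 0.75, Mfsd14a at 0.75 and Mlx (a partner of MondoA and ChREBP) at 0.74. For Cav2 the highest within groups were Cyb5a (cytochrome b5) at 0.84, Bhlhb9 at 0.83 and Kif1bp (a kinesin-binding protein) at 0.83. For Cavin1 they were Nras at 0.90, Selenoo at 0.85 and Tgfb1i1 (Hic-5, an adhesion adaptor) at 0.82. For Cavin2 they were Ddx52 (0.82), Nom1 (0.81) and Trappc13 (0.80), for Cavin3 Tor1b (0.80), Ift27 (0.79) and Aifm2 (0.79), and for Ehd2 Rarg (0.88), Cul7 (0.84) and Cep95 (0.84). For Pacsin2 they were Rai14 (0.88), a protein of curved membrane and actin, Tinagl1 (0.88) and Gadd45b (0.86). Taking the 3 highest of 8333 correlations over 17 libraries gives high values by itself, also among unrelated genes. No likeness was tested, so these names do not show a shared function.

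The genes that flank the caveolin pair on chromosome 6 were looked at after the members' values were known. In RefSeq order these are Tfec, Tes, Cav2, Cav1, Met and Capza2, and Tfec, with 17 counts in all, was not tested. Met, the receptor of hepatocyte growth factor, averaged 442 ± 22.2 CPM on HF (SD, n = 6) and 487 ± 38.2 CPM on NT (SD, n = 5), with a log2 fold change of -0.14 ± 0.04 (SE, edgeR adjusted p = 0.0877). It passed without NT 5 (-0.19, adjusted p = 0.000664). Tes (testin, an adhesion protein) averaged 80.5 ± 3.86 CPM on HF (SD, n = 6) and 86.1 ± 4.66 CPM on NT (SD, n = 5), or on the log2 scale -0.10 ± 0.04 (SE, edgeR adjusted p = 0.264). Capza2, an actin capping subunit, had -0.01 ± 0.04 (SE, edgeR adjusted p = 0.944), at 167 ± 5.89 CPM on HF (SD, n = 6) and 168 ± 8.46 CPM on NT (SD, n = 5).

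Other proteins that bend or bind curved membrane were read from lists written with the members. Of the other EHD and PACSIN genes, 4 of 5 were tested and 0 passed in any comparison by edgeR, DESeq2 or limma voom, with 1 at an unadjusted p under 0.05 for HF over NT (14.2% of all genes), 0 for HF over RT (8.00%) and 1 for RT over NT (17.1%). Ehd1, an ATPase of recycling endosomes, had the smallest p against NT, with a log2 fold change of 0.13 ± 0.05 on HF and 0.14 ± 0.05 on RT (SE, edgeR adjusted p = 0.143 and 0.101). It passed without NT 5 in both (adjusted p = 0.0413 and 0.0302). Between HF and RT the smallest p was that of Ehd3, with a log2 fold change of 0.05 ± 0.04 (SE, edgeR adjusted p = 0.798).

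Among 29 tested genes of other BAR, F-BAR and I-BAR proteins, 2 rose and 0 fell (2.33% of all genes were called) on HF against NT, with a median log2 fold change of 0.03 over the 29. Sh3gl1 (endophilin A2, a BAR protein of endocytosis) averaged 119 ± 3.49 CPM on HF (SD, n = 6), against 106 ± 3.71 CPM on NT (SD, n = 5). All 6 HF libraries were above all 5 NT libraries, as for 1.25% of all genes, and the log2 fold change was 0.17 ± 0.03 (SE, edgeR adjusted p = 0.00303). On RT it averaged 119 ± 1.90 CPM (SD, n = 6) and also rose over NT, by 0.17 ± 0.03 on the log2 scale (SE, edgeR adjusted p = 0.00190), as the 1 of 29 that passed there (3.97% of all genes were called), where DESeq2 called 3. Srgap1, an F-BAR protein with a GTPase-activating domain that acts in Slit and Robo signalling, rose to 154 ± 8.44 CPM on HF (SD, n = 6), against 133 ± 12.2 CPM on NT (SD, n = 5). Its log2 fold change was 0.22 ± 0.05 (SE, edgeR adjusted p = 0.0164), which no longer passed when NT 2 (adjusted p = 0.0515) or NT 3 (adjusted p = 0.0615) was omitted. Between HF and RT, 0 of 29 passed by edgeR, DESeq2 or limma voom, 5 had an unadjusted p under 0.05 (8.00% of all genes), and Srgap1 had a log2 fold change of 0.15 ± 0.05 (SE, edgeR adjusted p = 0.271).

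Of 13 genes that cut caveolae off, tie them to actin or phosphorylate Cav1, 0 passed on HF against NT by edgeR or limma voom and 1 by DESeq2, with 4 at an unadjusted p under 0.05 (14.2% of all genes). Fyn, a kinase of the Src family, averaged 63.3 ± 2.66 CPM on HF (SD, n = 6) and 57.5 ± 1.62 CPM on NT (SD, n = 5), or on the log2 scale 0.14 ± 0.04 (SE, edgeR adjusted p = 0.0717). It passed by DESeq2 (adjusted p = 0.0362). On RT against NT, 2 of the 13 rose and 0 fell by edgeR (3.97% of all genes were called), and DESeq2 and limma voom called 3 each. Src, the kinase that phosphorylates caveolin 1 on tyrosine, rose to 94.3 ± 3.10 CPM on RT (SD, n = 6), against 84.8 ± 4.03 CPM on NT (SD, n = 5, log2 fold change 0.15 ± 0.04, SE, edgeR adjusted p = 0.0135). The call ended without NT 3 or NT 4 (adjusted p = 0.0562 and 0.0514). Between HF and RT, 0 passed by edgeR, DESeq2 or limma voom, and 0 had an unadjusted p under 0.05.

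The routes of caveolin turnover and of other endocytosis gave few calls. Of 5 genes of the ubiquitin-dependent turnover of Cav1, 0 passed in any comparison by edgeR, DESeq2 or limma voom, with 1 for HF over NT (14.2% of all genes), 1 for HF over RT (8.00%) and 0 for RT over NT (17.1%) at an unadjusted p under 0.05. Ankrd13b, which binds ubiquitylated cargo, had the smallest p on HF, with a log2 fold change of 0.14 ± 0.06 against NT and 0.14 ± 0.06 against RT (SE, edgeR adjusted p = 0.272 and 0.452). On RT against NT it was Ankrd13d, at 0.11 ± 0.07 (SE, edgeR adjusted p = 0.453). Of 19 clathrin coat and adaptor genes, 0 passed on HF against NT or RT by any of these tools, with 2 in each at an unadjusted p under 0.05 (14.2% of all genes against NT and 8.00% against RT). On RT against NT 1 of 19 rose, where 3.97% of all genes were called. This was Epn3 (epsin 3), at 7.41 ± 1.29 CPM on RT (SD, n = 6) and 5.27 ± 0.591 CPM on NT (SD, n = 5), or on the log2 scale 0.49 ± 0.14 (SE, edgeR adjusted p = 0.0396). It did not pass by limma voom (adjusted p = 0.0706) or in 7 of 11 cases with 1 library left out (adjusted p up to 0.103). Picalm, an adaptor that senses curvature, had a log2 fold change of 0.07 ± 0.03 on HF against NT (SE, edgeR adjusted p = 0.328), and Epn3 one of -0.38 ± 0.13 on HF against RT (SE, edgeR adjusted p = 0.315). The flotillins, scaffolds of membrane domains apart from caveolae, had 0 of 2 past the threshold by these tools and 0 at an unadjusted p under 0.05 in each comparison. Flot1 was at -0.04 ± 0.04 for HF against NT and -0.04 ± 0.04 for RT against NT, and Flot2 at 0.04 ± 0.04 for HF against RT (log2 fold change, SE, edgeR adjusted p = 0.690, 0.630 and 0.854).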

How the data were processed

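Raw counts per gene were deposited by the authors for 17 libraries of poly-A RNA, non-directional per the labels, with no normalization. The submitters' processing notes name CASAVA, HISAT2 2.0.5, featureCounts 1.5.0-p3 and the build GRCm39, without a role for each. The annotation release, strand setting and filters are not given in the sources used here. Every column was used. Symbols and transcript lengths came from GENCODE M21, built on GRCm38, where 52073 of 56748 identifiers had a symbol, and promoter sequences from RefSeq on GRCm38.p6. In GENCODE M21 none of the 7 members but Cavin3 shares a 100-base window of its longest transcript, or exonic bases, with another gene.

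Genes were kept by filterByExpr (15196). TMM scaling and a fit by edgeR 4.0.16 (quasi-likelihood F test, robust, 1 mean per group, no covariate) in R 4.3.3 followed. Two-sided p-values were Benjamini-Hochberg adjusted across the whole table, and 0.05 was the threshold. Standard errors are the size of the log2 fold change over the root of F, and 95% intervals reach 1.96 of them to each side. Log2 CPM used a prior count of 2. DESeq2 1.42.0, limma 3.58.1 (voom), RLE size factors, no filter beyond 1 count, only the 2 groups compared, a replicate block, libraries numbered 1 to 5 and each library left out were alternatives. The edgeR fit was tested on simulated data, with 50 genes changed per fold and comparison, drawn at all levels of expression. It recovered 84% to 94% of genes changed 2-fold and 28% to 30% of those changed 1.15-fold. Named beside the members were, per list and comparison, up to 4 genes with the smallest p past the threshold, or otherwise the gene with the smallest p, and the 3 genes most correlated with each member. Gene lists and members were chosen with earlier results of these data known. A few genes of the lists are counted but not reported by name here.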

Additional observations from a re-analysis of the deposited data

Results flagged for a closer look

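Within a surface, 2 of 21 sets of member values held a library set apart from the rest by Dixon's criterion, where chance alone gives about 1 in 20. Pacsin2 in NT 2 stood at 183 CPM, above the next NT library at 162 CPM, a gap of 0.821 of the range where the limit for 5 libraries is 0.71. Cavin1 in RT 5 stood at 611 CPM, above the next RT library at 587 CPM, a gap of 0.729 of the range where the limit for 6 libraries is 0.625. Neither gene passed in any comparison, with or without these libraries.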

How the results depend on the processing

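The 2 member calls of HF against NT, both lower, stood under each of 7 other settings. The log2 fold change of Cav1 ran from -0.18 to -0.17 there (adjusted p from 7.61e-06 to 0.00813) and that of Cav2 from -0.16 to -0.14 (adjusted p from 0.00388 to 0.0421). With single libraries left out, Cav1 ran from -0.21 to -0.17 (adjusted p from 0.000160 to 0.00557) and Cav2 from -0.18 to -0.14 (adjusted p from 0.00348 to 0.0602), so that the count of members called was 1 to 2, and 0 to 1 for RT against NT. Counts over all genes moved more. HF against NT (354) gave 564 with DESeq2, 597 with no filter, 200 with only the 2 groups, 637 with the replicate block and 202 to 604 with single libraries left out. HF against RT (32) gave 84, 148, 113 and 125 in the same order, 15 with libraries numbered 1 to 5 and 14 to 89. RT against NT (603) gave 995 with the block and 365 to 806. The causes were not tested. With single libraries left out, small differences changed sign: Pacsin2 (-0.0072 to 0.0491) and Capza2 (-0.0307 to 0.0142) for HF against NT, Cavin2 (-0.0729 to 0.0134), Cavin3 (-0.0833 to 0.0014) and Tes (-0.0363 to 0.0054) for HF against RT, and Cavin1 (-0.0264 to 0.0248) for RT against NT. The tests between members say nothing of stability, since a lone pair could not pass (adjusted p of 0.136 at best), and the replicate block allows no p under 0.0625 with 5 pairs.

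Same-numbered libraries of different groups had correlations of their deviations between -0.01 and 0.19, with 2 of 16 above 0.1, and 8 of 17 libraries correlated best with their own number. Pairs with different numbers had correlations between -0.13 and 0.06, with a median of -0.02, beside 0.05 for same-numbered pairs. Same-numbered libraries were thus somewhat more alike. Whether the numbers pair the libraries was not tested. Under the block Cav1 was at -0.18 (adjusted p = 0.000692) and Cav2 at -0.15 (adjusted p = 0.0110) for HF against NT. Cavin3 has the fewest counts of the members, 250 to 461 per library, and the widest intervals. Met passed for HF against NT with no filter (adjusted p = 0.00636) and with the block (adjusted p = 0.0148), and without NT 5 also for RT against NT (-0.12, adjusted p = 0.0323). Srgap1 passed for HF against RT with no filter, with only the 2 groups and with the block (adjusted p = 0.0167, 0.0497 and 0.0217).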
